A study of Mus musculus with 7 samples.

Results

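The regions described here were the divergent promoters of protein-coding genes on the 19 mouse autosomes. Each member was a pair of neighbouring protein-coding genes of the mm9 GENCODE annotation that lay on opposite strands, did not overlap at their starts and were transcribed away from each other, with at most 1000 bp between the starts and no other protein-coding start between them. There were 776 such pairs, which used 1549 of the 21418 autosomal protein-coding genes. The region of a pair was the interval between its starts plus 500 bp into each gene. The rule used the annotation only and no value of the peak lists.

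The peaks came from chromatin immunoprecipitation and sequencing (ChIP-seq) of liver nuclei from 8-week-old female Crl:CD1(ICR) mice, an outbred stock, with 4 libraries for CTCF (Millipore antibody) and 3 for Rad21 (Abcam antibody). The mice were of a single sex and strain, and no treatment or genotype was compared. The deposited lists are named for the merged libraries of an antibody and are called pooled here. Each factor thus had a single list with no replicate values, and sequencing depth could not be read from it. Liver markers could not be checked, since peak lists hold no expression values.

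Genes that start back to back often share a promoter rich in CpG dinucleotides, from which polymerase leaves in both directions, and genes of DNA repair, mitochondria and other housekeeping functions are frequently arranged in this way. CTCF is a zinc finger protein that binds a long DNA motif and stops cohesin, the ring-shaped complex that extrudes chromatin loops. Rad21 is the subunit that closes the cohesin ring, and its ChIP signal marks where cohesin is held on chromatin.

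The starts of a pair were a median of 141 bp apart (quartiles 72 and 271 bp, range 1 to 987 bp). The sequence that separates them is thus short enough to be shown for single pairs. The 7 intervals below run 5′ to 3′ on the plus strand of mm9, from the base after the start of the minus-strand gene (named first) to the base before the start of the plus-strand gene. Capitals mark short words that are known sites of promoter factors, searched on both strands: GGGCGG for Sp factors, CCGGAAG for ETS factors, CCAAT for NF-Y, CACGTG for E-box proteins, GCATGCGC for NRF1, ATGGCGGC for YY1, ACTACAA for ZNF143, TGACGTCA for CREB and TATAAA for the TATA box. Where words overlap, their letters run together. The first 3 pairs were chosen because they were among the 10 with the highest CTCF fold enrichment, the next 3 because they are well-known pairs with moderate peaks, and the last because it is a well-known pair without any peak.
Exosc8/Alg5, chr3:54539316-54539460: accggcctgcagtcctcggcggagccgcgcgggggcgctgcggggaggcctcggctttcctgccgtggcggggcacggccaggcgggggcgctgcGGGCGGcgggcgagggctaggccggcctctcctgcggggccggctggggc
Vezt/Fgd6, chr10:93498563-93498745: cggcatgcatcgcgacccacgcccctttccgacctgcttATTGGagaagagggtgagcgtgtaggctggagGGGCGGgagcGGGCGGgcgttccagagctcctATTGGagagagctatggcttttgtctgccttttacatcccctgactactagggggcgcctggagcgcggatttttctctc
B3galt6/Sdf4, chr4:155366788-155366980: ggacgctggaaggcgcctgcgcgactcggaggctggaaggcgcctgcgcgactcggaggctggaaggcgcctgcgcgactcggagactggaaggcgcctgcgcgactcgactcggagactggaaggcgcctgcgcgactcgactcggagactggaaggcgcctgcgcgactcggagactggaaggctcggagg
Toe1/Mutyh, chr4:116480246-116480327: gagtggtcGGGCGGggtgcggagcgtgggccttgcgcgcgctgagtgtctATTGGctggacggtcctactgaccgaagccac
Osgep/Apex1, chr14:51544569-51544642: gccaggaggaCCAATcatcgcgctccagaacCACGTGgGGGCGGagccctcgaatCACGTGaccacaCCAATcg
Tsc2/Nthl1, chr17:24769575-24769626: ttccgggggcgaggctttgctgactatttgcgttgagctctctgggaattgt
Mrps12/Sars2, chr7:29526840-29527009: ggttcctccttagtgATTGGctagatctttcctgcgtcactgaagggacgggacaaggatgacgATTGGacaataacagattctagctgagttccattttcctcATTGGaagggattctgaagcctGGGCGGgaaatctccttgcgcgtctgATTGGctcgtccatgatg

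The Exosc8/Alg5 interval, 83.4% G or C with 21 CpG dinucleotides in 145 bp, held the 16-letter run gcgggggcgctgcggg at 2 places. The B3galt6/Sdf4 interval was built from a repeat, with 6 copies of aaggcgcctgcgcgac. The Sp and NF-Y words were the ones that occurred most often in these intervals. In the whole set they were found within 250 bp upstream to 50 bp downstream of 68.2% and 42.3% of the member genes' starts. At lone promoters, the comparison set defined below, the shares were 41.0% and 37.5%. Comparisons among CpG-rich starts are given further below.

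Most divergent promoters held peaks of both lists. A CTCF peak shared at least 1 bp with 643 of the 776 regions (82.9%, 95% Wilson interval 80.0 to 85.3%), and a Rad21 peak with 641 (82.6%). The comparison set was lone promoters, genes without another protein-coding start within 2 kb, whose windows had the same median width of 1142 bp. Among 18379 lone promoters, CTCF peaks were found at 43.8% and Rad21 peaks at 43.9%. The share at divergent promoters was higher by 39.0 percentage points for CTCF (95% Newcombe interval 36.1 to 41.6) and by 38.7 points for Rad21 (35.8 to 41.3). These intervals cover counting error over regions only, since the variation between mice cannot be seen in pooled lists, and a region without a peak may still be bound below the calling threshold.

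Peaks of both lists overlapped each other in 611 pairs (78.7%), against 40.0% of lone promoters, a difference of 38.8 points (35.7 to 41.6). When only peaks with a fold enrichment of at least 5 were counted, the differences were 25.2 points for CTCF, 18.7 for Rad21 and 14.1 for overlapping peaks. Peaks of a single factor were rare. A Rad21 peak without a CTCF peak was found in 23 pairs (2.96%), against 3.52% of lone promoters, and the interval of the difference of −0.556 points included 0 (−1.58 to 0.911). This difference changed direction to 3.90 points (2.14 to 6.07) among peaks with a fold of at least 5. A CTCF peak without a Rad21 peak was found in 25 pairs (3.22%), near the 3.40% of lone promoters (difference −0.174 points, −1.24 to 1.34), and 110 pairs (14.2%) had neither, against 52.7% of lone promoters. The regions made up 0.0392% of the autosomal sequence and held 1.28% of the 67010 autosomal CTCF peaks and 1.39% of the 67228 Rad21 peaks. Per chromosome the CTCF share ran from 71.4% of 28 pairs on chromosome 6 to 93.8%.

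The difference from lone promoters was much smaller among CpG-rich regions, but not among CpG-poor ones. A region was called CpG-rich when at least 50% of its bases were G or C and its CpG count was at least 0.6 of that expected from its C and G content. Of the divergent promoters 83.5% were CpG-rich, and of the lone promoters 38.0%. Within CpG-rich regions CTCF peaks were found at 86.7% of 648 divergent and 80.9% of 6988 lone promoters, which left a difference of 5.79 points (2.82 to 8.36). For Rad21 the difference was 6.47 points (3.48 to 9.06), and for overlapping peaks 7.68 points (4.49 to 10.5). In the 128 CpG-poor divergent promoters, 63.3% held a CTCF peak, against 21.0% of CpG-poor lone promoters, a difference of 42.2 points (33.6 to 50.1), and the Rad21 difference was 40.8 points (32.1 to 48.7). The CpG-poor class holds every region that failed either limit, by however much. Composition within it was not compared between the sets, so its differences are not at matched composition. For a peak of a single factor the direction depended on composition. The difference for CTCF without Rad21 was −2.14 points (−3.11 to −0.679) in CpG-rich and 6.44 points (2.50 to 12.7) in CpG-poor regions, and for Rad21 without CTCF it was −1.47 (−2.37 to −0.0549) and 4.95 points (1.21 to 11.1).

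Tandem promoters, in which a gene on the same strand ends at most 1000 bp upstream, held CTCF peaks at 59.4% of 524 windows and Rad21 peaks at 55.9%. When only CpG-rich windows were used, their CTCF share was 87.8% and the share at divergent promoters differed by −1.08 points (−5.81 to 4.64), while overlapping peaks were more frequent at divergent promoters by 6.72 points (0.681 to 13.5). Among CpG-poor windows the divergent promoters were higher by 22.2 points for CTCF (63.3% against 41.1%, with an interval that left out 0) and 23.6 points for Rad21 (13.4 to 33.1). A CTCF peak without a Rad21 peak was less frequent in the CpG-rich divergent promoters than in the tandem ones, with a difference of −7.26 points (−12.1 to −3.72). Convergent gene ends, where 2 genes run towards each other and end within 1000 bp, carried a CTCF peak at 11.8% and a Rad21 peak at 9.47% of 549 regions.

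**Figure D1:**
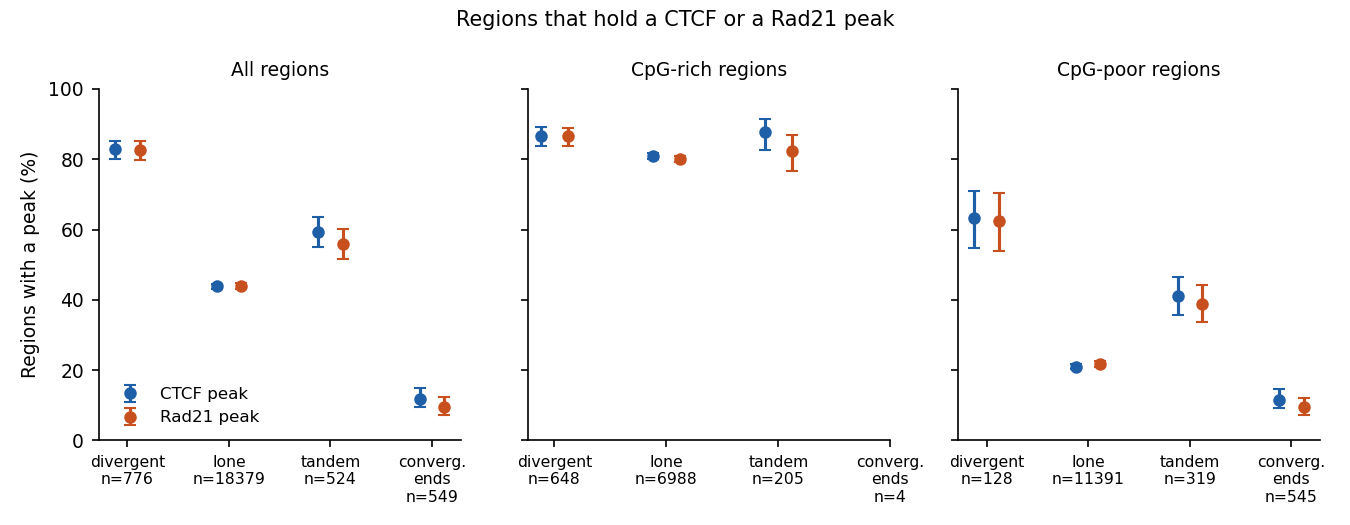
Share of regions (y axis, percent) with a CTCF peak (blue) or a Rad21 peak (orange) for divergent promoters, lone promoters, tandem promoters and convergent gene ends, for all, CpG-rich and CpG-poor regions. Bars are 95% Wilson intervals, and the 4 CpG-rich convergent ends are not drawn. Divergent promoters stand well above lone promoters in all regions (82.9% against 43.8% for CTCF), but only slightly above them among CpG-rich regions (86.7% against 80.9%).

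Peak summits seldom lay in the shared interval, although many peaks were broad enough to cover it. Within the regions 784 CTCF summits were counted, of which 90 (11.5%, 9.43 to 13.9%) lay between the starts, and for Rad21 61 of 855 did (7.13%, 5.59 to 9.06%). Per kb of sequence there were 0.556 CTCF summits between the starts and 0.894 in the first 500 bp of the genes. The Rad21 densities were 0.377 between the starts and 1.02 in the genes. Summits inside the genes lay a median of 160 bp downstream of the start for CTCF and 166 bp for Rad21, and the densest stretch was the second 100 bp downstream for both, with 1.88 and 2.48 summits per kb.

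**Figure D2:**
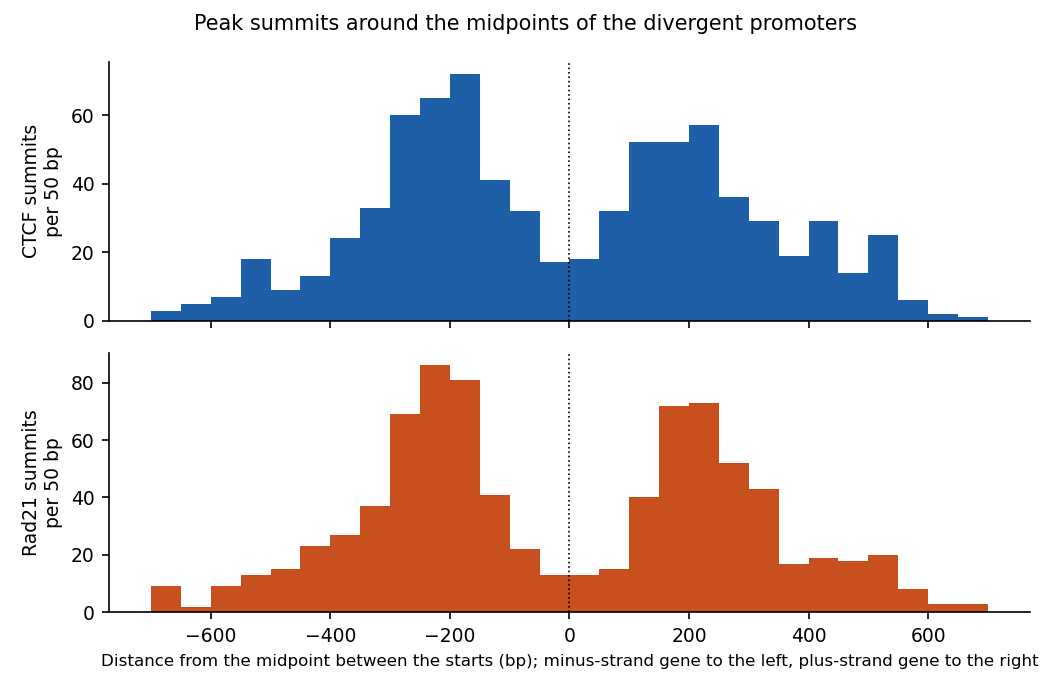
Number of CTCF (top) and Rad21 (bottom) peak summits per 50 bp (y axis) against the distance in bp from the midpoint between the starts (x axis), with the minus-strand gene on the left. Both factors show 2 maxima on either side of a minimum at the midpoint, where the 50-bp bins held 17 and 18 CTCF summits and 13 and 13 Rad21 summits.

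Counted per gene rather than per pair, divergent and lone promoters were close to each other where they were CpG-rich and differed where they were CpG-poor. A CTCF summit in the 500 bp downstream was found at 44.3% of all member starts and 26.0% of lone starts, a difference of 18.3 points (15.7 to 20.8), and for Rad21 the difference was 20.5 points (17.9 to 23.0). Of the 1296 gene starts in CpG-rich divergent promoters, 46.9% had a CTCF summit in the 500 bp downstream, against 49.8% of CpG-rich lone promoters, and the interval of the difference ran from −5.79 to 0.120 points. For Rad21 the shares were 54.5% and 57.1% (difference −5.58 to 0.312 points). At CpG-poor member starts the CTCF share was 31.2%, against 11.5% of CpG-poor lone starts, a difference of 19.7 points (14.4 to 25.7), and the Rad21 shares were 30.9% and 13.6%, a difference of 17.3 points (11.9 to 23.2). The density in that second stretch of 100 bp was 2.03 CTCF summits per kb of CpG-rich member gene and 1.90 per kb of CpG-rich lone gene, and 2.65 and 2.59 for Rad21. A divergent region contains a pair of such gene starts. Each peak has a single summit, so a peak over both starts of a pair counted for at most a single gene. A single CTCF peak covered both starts in 307 pairs and a single Rad21 peak in 261. This counting can lower the member shares but not those of lone promoters, and its size was not tested. On the upstream side, the CpG-rich members had 0.612 CTCF summits per kb between the starts, compared with 0.889 in the 141 bp upstream of CpG-rich lone starts, and 0.358 and 0.602 for Rad21. These windows are unlike, since the lone window is fixed and the starts of pairs are 1 to 987 bp apart. The density between the starts also differed with that distance, as given below.

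**Figure D3:**
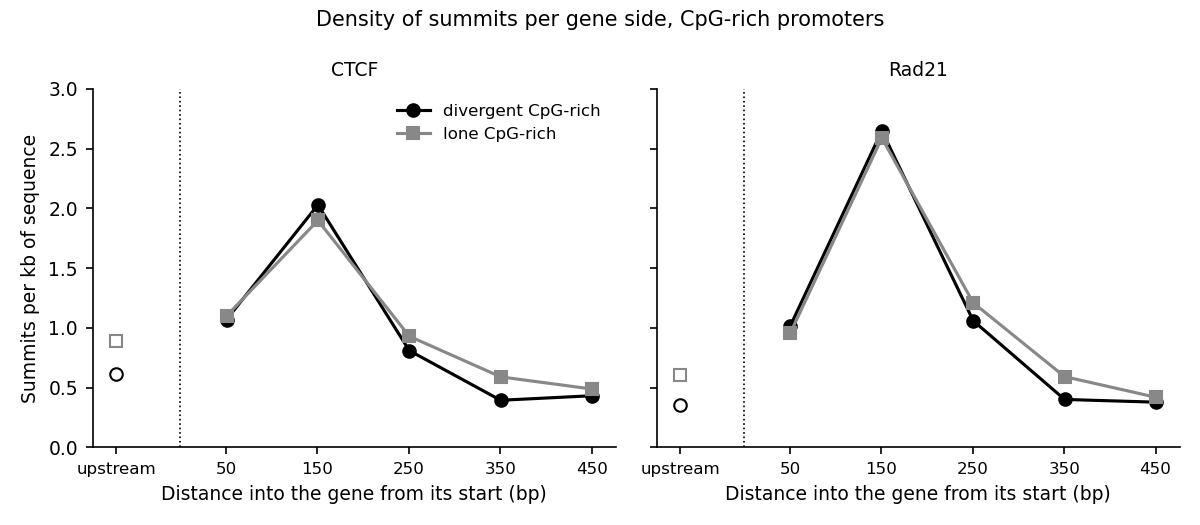
Summits per kb of sequence (y axis) in 100-bp steps into the gene (x axis, bp from its start) for CpG-rich divergent (black) and CpG-rich lone promoters (grey), CTCF left and Rad21 right. Open symbols give the density between the starts of divergent pairs and in the 141 bp upstream of lone starts. The downstream profiles are close up to 200 bp, with maxima of 2.03 and 1.90 for CTCF and of 2.65 and 2.59 for Rad21, and the lone promoters are higher further in (0.590 against 0.394 for CTCF and 0.592 against 0.401 for Rad21 in the fourth 100 bp), and the open symbols of the divergent pairs lie below those of the lone promoters.

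Of the 616 pairs with a CTCF summit in the region, 214 had summits only in the minus-strand gene, 188 only in the plus-strand gene and 126 in both genes, and 56 had summits only between the starts. For Rad21 the corresponding numbers of 621 pairs were 202, 163, 196 and 36. A CTCF summit in the plus-strand gene was found in 35.5% of the pairs with one in the minus-strand gene and in 48.0% of those without, a difference of −12.5 points (−19.3 to −5.54). No such difference was seen for Rad21 (1.13 points, −5.89 to 8.13). A peak has a single summit in these lists, so a peak over both genes counted for 1 side. A single CTCF peak covered both starts in 307 pairs (47.7% of those with a CTCF peak), and a single Rad21 peak in 261 (40.7%). Where each factor had summits in only 1 of the genes, it was the same gene in 222 of 278 pairs (79.9%, 74.7 to 84.1%). The strongest CTCF and the strongest Rad21 summit of a region were a median of 74.5 bp apart.

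Closely spaced pairs were occupied most often, and widely spaced pairs had more of their summits between the starts. Pairs with starts at most 100 bp apart held a CTCF peak in 88.2% of 289 cases (84.0 to 91.5%), and pairs with starts over 500 bp apart in 76.5% of 81 (66.2 to 84.4%), although the shares between these did not fall steadily (80.0%, 83.5% and 76.8%). For Rad21 these shares were 88.6% and 76.5%. The CpG-rich share was 87.5% in the closest and 66.7% in the most distant pairs, with 89.0% in the third of the 5 classes, and its part in the difference was not tested. The share of CTCF summits that lay between the starts went from 1.68% in the closest pairs to 41.1% in the most distant, and for Rad21 from 1.32% to 34.0%. A longer interval holds more of the region, so the density is the fairer measure. From the closest to the most distant class there were 0.306, 0.322, 0.550, 0.743 and 0.657 CTCF summits per kb between the starts, and 0.245, 0.290, 0.220, 0.323 and 0.568 Rad21 summits. Of the 21 pairs within 200 bp inside the distance limit, 19 had a CTCF peak, and of the 30 pairs within 200 bp outside it, 23 did.

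**Figure D4:**
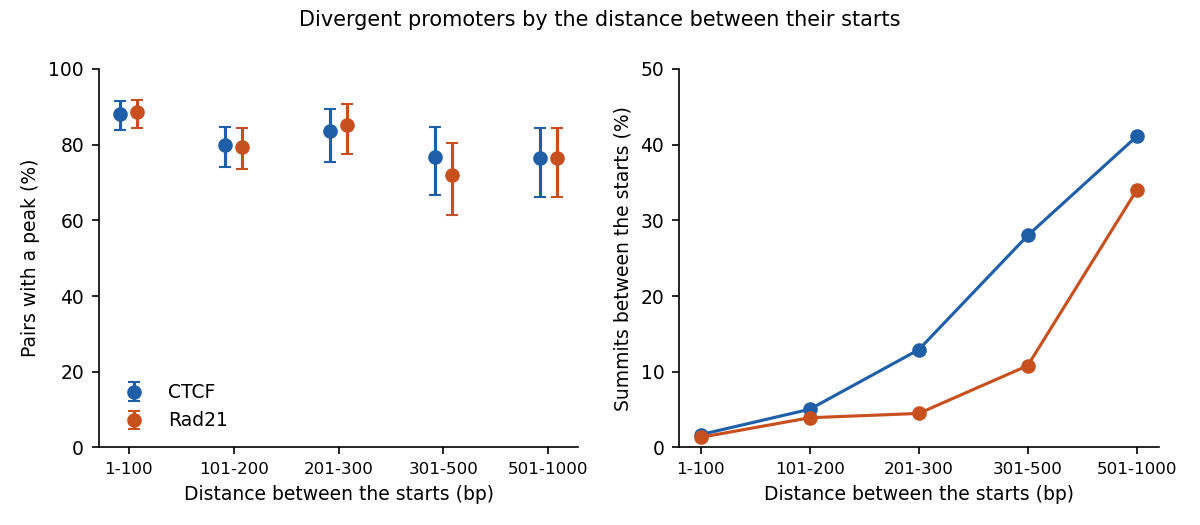
Left, share of divergent pairs (y axis, percent) with a CTCF (blue) or Rad21 (orange) peak by distance between the starts (x axis, bp), with 95% Wilson intervals. Right, share of the summits in the region that lay between the starts (y axis, percent) for the same bins. CTCF occupancy is 88.2% in the closest and 76.5% in the most distant pairs, with overlapping intervals among the wider bins, and the share of its summits between the starts rises from 1.68% to 41.1%.

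The median strength of the peaks at divergent promoters was below that of each whole list. Strength is given as fold enrichment of the ChIP signal over local background at the summit, as the authors' peak caller computed it, and was compared only within a list. The median of the 856 CTCF peaks was 4.98 (4.73 to 5.22, quartiles 3.58 and 7.28), below the 5.47 of CTCF peaks at lone promoters and the 6.03 of all autosomal CTCF peaks. The 933 Rad21 peaks had a median of 4.48 (4.36 to 4.59), against 4.81 at lone promoters and 4.91 over all autosomal Rad21 peaks. The median widths of the member peaks, 531 bp for CTCF and 495 bp for Rad21, were above those of all autosomal peaks (402 and 418 bp) but below those of peaks at lone promoters (541 and 557 bp). Of the 643 pairs with a CTCF peak, 414 (64.4%) had one with a fold of at least 5, 120 (18.7%) of at least 10 and 26 (4.04%) of at least 20. Of single autosomal CTCF peaks 58.2%, 33.2% and 9.00% reached these values, so the pairs, each taken at its strongest peak, were above them at 5 and below them at 10 and 20. Of the member CTCF peaks, 92.3% overlapped a Rad21 peak, close to the 91.4% of those at CpG-rich lone promoters and the 89.4% at all lone promoters, while of all autosomal CTCF peaks 73.8% did.

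Few of these CTCF peaks contained a CTCF motif. The motif was a 20-bp matrix learned from the 1000 strongest CTCF peaks on odd-numbered autosomes outside the promoter regions, with the consensus NNGGCCACNAGAGGGCNCNN, and a match within 100 bp of the summit counted when it scored at least 12.6 bits, which 1% of 57471 flanking windows reached. Of the 856 CTCF peaks at divergent promoters 27 had a match (3.15%, 2.18 to 4.55%), against 9.41% of those at lone promoters, a difference of −6.26 points (−7.41 to −4.75). At a lenient threshold that 5% of flanking windows reached, 107 had a match (12.5%), against 22.2% at lone promoters (difference −9.68 points, −11.9 to −7.16). Within CpG-rich regions the shares were 3.30% and 7.60%, and the difference was −4.30 points (−5.54 to −2.66). Among 26010 CTCF peaks at neither kind of promoter on even-numbered autosomes, which the matrix had not been learned from, 47.4% had a match.

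The share was also low when peaks were compared within classes of fold enrichment. When the member peaks were divided into 4 equal classes by fold enrichment, 0.467%, 0.935%, 1.87% and 9.35% carried a motif, from the weakest to the strongest. CTCF peaks elsewhere within the same limits of fold enrichment carried one in 15.7%, 32.8%, 44.7% and 70.3%. The strongest class is wide, with member folds of 7.29 to 30.6 and a member median of 10.6. The spread of the other peaks within it was not compared, so strength was matched only to the class limits. Member peaks with a motif had a median fold of 13.2 (7.46 to 19.6) and the 829 without one a median of 4.84 (4.67 to 5.15). The share that overlapped a Rad21 peak was 92.6% with and 92.3% without a motif.

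**Figure D5:**
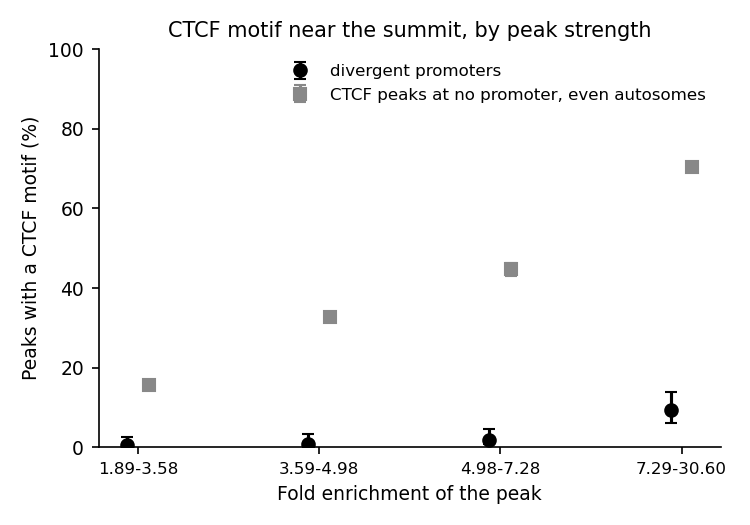
Share of CTCF peaks with a CTCF motif within 100 bp of the summit (y axis, percent) in 4 classes of fold enrichment (x axis) for divergent promoters (black) and for peaks at neither divergent nor lone promoters on even-numbered autosomes (grey), with 95% Wilson intervals. In the strongest class, which is wide and not matched within, 9.35% of the divergent promoter peaks and 70.3% of the other peaks have a motif.

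Among the pairs with a CTCF fold of at least 20, 7 had a motif, and 3 of these sites are shown as examples of the exceptions to the low share. They belong to pairs that were among the 10 highest for CTCF or Rad21 and run 5′ to 3′ on the strand of the match, with the 20 matrix positions in capitals. The Tas1r1/Nol9 site lay between the starts, the Tctn3/Entpd1 site 54 bp into Entpd1 and the 4632404H12Rik/Ube2q1 site 506 bp into 4632404H12Rik.
4632404H12Rik/Ube2q1, chr3:89576641-89576670, minus strand, 19.9 bits: tcgtcGTTCCCACTAGGTGGCACTAtcaca
Tas1r1/Nol9, chr4:151413359-151413388, plus strand, 14.2 bits: agacgCCGGCCGGGAGGGGGCGCCAgccgc
Tctn3/Entpd1, chr19:40686895-40686924, plus strand, 13.8 bits: ctgatCCCGCCGCTAGATGGCAGCTggcag

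The 10 pairs with the highest CTCF fold enrichment had values of 23.6 to 30.6, and each held a Rad21 peak that overlapped the CTCF peak. In 5 of them the CTCF summit lay between the starts, in 3 in the first 500 bp of a gene and in 2 further inside. Over all members 11.5% of the CTCF summits in the regions were between the starts. That share counts every summit in the regions, while these 10 pairs are taken at their strongest peak. It also differed with the distance between the starts, as given above. The 5 pairs with a summit between the starts had distances of 146 to 753 bp, and the rest of the 10 had 28 to 330 bp. The part of distance was not tested. Among the 23 CTCF summits in the regions with a fold of at least 20, a limit chosen after the values were seen, 12 were between the starts (52.2%, 33.0 to 70.8%). In 4 equal classes of fold enrichment the share did not rise steadily, with 12.2%, 5.61%, 11.2% and 16.8% from the weakest to the strongest. Of the 26 pairs that reached this fold, 15 had a motif match at the lenient threshold.

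The highest CTCF fold was that of Exosc8/Alg5, which encode a subunit of the RNA exosome and an enzyme of N-glycosylation, with 30.6 and a summit 22 bp into the interval shown above. Its Rad21 peak had a fold of 16.9. The best motif match there scored 11.8 bits, below the threshold. The pair Gm10644/Asf1b, a predicted gene and a histone chaperone, followed with a CTCF fold of 29.1 and had the highest Rad21 fold of all members, 25.3. Both summits lay between its starts, 27 bp apart. A830093I24Rik/Pfn4 had a CTCF fold of 26.7 and a Rad21 fold of 20.9, with both summits in A830093I24Rik, at 203 and 215 bp from its start.

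B3galt6/Sdf4, an enzyme that builds the linker of proteoglycan chains and a calcium-binding protein of the Golgi, reached a CTCF fold of 26.0 with the summit 194 bp inside B3galt6, beyond the repeat printed above, and its stronger Rad21 peak had a fold of 7.03. Tas1r1/Nol9, a subunit of the umami taste receptor and a kinase of ribosomal RNA processing, had 25.2 for CTCF and 11.8 for Rad21, with summits between the starts. Rpgrip1l/Fto, a protein of the ciliary base and an RNA demethylase, had a CTCF fold of 24.9 and a Rad21 fold of 5.79. Tctn3/Entpd1, another ciliary protein and the ectoenzyme CD39, had 24.8 and 16.5. Vezt/Fgd6, an adherens junction protein and an exchange factor for Cdc42, had 23.7 and 15.2, both with summits between the starts, and its best motif match of 10.6 bits was also below the threshold. In Exd1/1500003O03Rik and Hnrpdl/Enoph1, with CTCF folds of 24.1 and 23.6, the summits were 516 and 664 bp inside the minus-strand gene.

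Among the pairs with the highest Rad21 fold, 16.5 to 25.3, was Foxa3/Sympk. Foxa3 is a forkhead factor of the liver and Sympk a scaffold of messenger RNA 3′ processing. Its starts were 839 bp apart, its Rad21 fold was 17.7 and its CTCF fold 18.5, and both summits were between the starts. Zfp319/AA960436 had a Rad21 fold of 19.6 with the summit 62 bp inside Zfp319, 3 bp from its CTCF summit. Basp1/Gm5468 (24.0 for Rad21), 4632404H12Rik/Ube2q1 (19.4) and Dusp3/1700006E09Rik (18.2) had their Rad21 summits over 500 bp inside a gene, at 747, 541 and 795 bp from the start. The peaks of Basp1/Gm5468 and Dusp3/1700006E09Rik lay almost wholly outside the region. The former began at 25344444 where the region ended at 25344447, and the latter ended at 101847828 where the region began at 101847827.

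Dusp3/1700006E09Rik was also the strongest of the 23 pairs with a Rad21 peak and no CTCF peak in the region, but its Rad21 peak overlapped a CTCF peak beyond the region's edge. The same was true of 5 of the 23 pairs, and in the other 18 no CTCF peak overlapped the Rad21 peak anywhere. The strongest of these 18 had moderate Rad21 folds. They were Tmem199/Poldip2 with 6.30, Cdc26/Prpf4 (a subunit of the anaphase-promoting complex and a splicing factor) with 4.90, Glb1l/Stk16 with 4.66 and Polr1c/Yipf3 (a subunit of RNA polymerases I and III and a Golgi protein) with 4.47. Of the 25 pairs with a CTCF peak and no Rad21 peak, the strongest were Neil1/Gm16493 with a CTCF fold of 7.48, where Neil1 is a DNA glycosylase, and Rad51ap1/D6Wsu163e with 6.91, where Rad51ap1 assists homologous recombination. Hist1h2ae/Hist1h2bg (6.72), Kctd19/Lrrc36 (6.70) and Gm9922/Lmo7 (6.36) followed. In none of the 25 did a Rad21 peak overlap the CTCF peak outside the region.

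Of 26 pairs known from textbooks as divergent or neighbouring genes, 12 met the rule, while 8 overlapped at their starts in this annotation. Of the 12, 8 held a CTCF peak and 7 of these an overlapping Rad21 peak, against 82.9% and 78.7% of all members. Atm/Npat, the DNA damage kinase and a regulator of histone genes, had a CTCF fold of 15.4 with the summit between the starts, but its 3 Rad21 peaks had folds of only 2.70 to 3.49 and their summits lay in Atm and Npat. Aimp2/Pms2 had a CTCF fold of 6.08 and a Rad21 fold of 4.29. Toe1/Mutyh, with the base excision glycosylase Mutyh, had 5.58 and 4.17, Tsc2/Nthl1 (the mTOR regulator tuberin and another glycosylase) 5.38 and 4.50, and Osgep/Apex1 (a transfer RNA modifying enzyme and the abasic site endonuclease) 5.18 and 5.10. Gart/Son had 3.49 and 3.90 and Brca1/Nbr1 2.49 and 3.54. Col4a4/Col4a3, which encode chains of basement membrane collagen and share a CpG-poor region, had a weak CTCF peak (3.30) and no Rad21 peak. No peak of either list was found at Mcm4/Prkdc, Pdcd10/Serpini1 or Mrps12/Sars2, whose regions were CpG-rich.

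Grouped by function, most lists of housekeeping genes were occupied at about the rate of all members, against which each count is read (82.9% for CTCF and 82.6% for Rad21). Pairs with a DNA repair or replication gene held a CTCF peak in 31 of 35 cases and a Rad21 peak in 32. Pms1/Ormdl1 (a mismatch repair protein and a regulator of sphingolipid synthesis) and Trmt6/Mcm8 (a transfer RNA methyltransferase subunit and a helicase of recombination) led with CTCF folds of 17.2 and 17.0 and Rad21 folds of 8.82 and 9.76. Pairs with a gene of the respiratory chain had CTCF peaks in 21 of 23 and Rad21 peaks in 20, with the highest CTCF folds at Stxbp4/Cox11 (19.4) and Atp5c1/Kin (17.8). The lone promoters of these lists held CTCF peaks in 62 of 75 cases for DNA repair and replication and 44 of 65 for the respiratory chain. For the mitochondrial ribosome the counts were 14 and 13 of 16 pairs, for RNA polymerases and general factors 17 and 18 of 20, for aminoacyl-tRNA synthetases 6 and 6 of 7, and for the cytosolic ribosome 7 and 8 of 9. Lone promoters of these 4 lists held CTCF peaks in 36 of 44, 42 of 48, 25 of 25 and 55 of 119 cases, in the same order. The RNA polymerase list contained Rad17/Taf9 under a pair of gene identifiers for Taf9, so it counted there as 2 pairs. All 4 proteasome pairs held both peaks, with CTCF folds of 4.06 to 8.61, and of the lone proteasome promoters 25 of 30 held a CTCF peak and 25 a Rad21 peak. Chaperones had 10 of 14 for both factors and zinc finger proteins 12 of 16, and their lone promoters held CTCF peaks in 34 of 55 and 212 of 331 cases.

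Among the genes of cohesin itself, the loader Mau2 (with Sugp1) and the stabilising factor Cdca5, known as sororin (with Zfpl1), were members. Mau2/Sugp1 had a CTCF fold of 4.41 and a Rad21 fold of 5.14, and Zfpl1/Cdca5 4.04 and 3.61. Of 10 pairs with a gene of the list of liver enzymes and transporters 9 held both peaks. Whether the genes of this list are expressed in liver could not be checked. The highest CTCF fold among them, 22.3, was that of Abca17/Abca3, a pair of lipid transporters, with a summit between the starts. Slc25a27/Cyp39a1, the latter an enzyme of bile acid synthesis, had folds of 7.06 for CTCF and 4.59 for Rad21. Among the 333 lone promoters of the same list, CTCF peaks were counted at 107 and Rad21 peaks at 138.

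The replication-dependent histone genes stood apart from the other lists. Of their 14 pairs, 13 of which paired histone genes with each other, 5 held a CTCF peak (35.7%, 16.3 to 61.2%) and 3 a Rad21 peak (21.4%, 7.57 to 47.6%), in no pair did the peaks overlap, and 8 had neither, although 12 of the 14 regions were CpG-rich. The strongest, Hist1h2ae/Hist1h2bg, had a CTCF fold of 6.72, and Hist1h2ac/Hist1h2bc, with 4.36 for CTCF and 5.31 for Rad21, had summits 407 bp apart. The lone promoters of histone genes held CTCF peaks in 7 of 17 cases and Rad21 peaks in 3. The genes of this family are near-identical copies and the authors kept only uniquely mapped reads, and the part of this in the low counts was not tested.

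In 204 pairs at least 1 gene had only a provisional symbol. Of these pairs 75.5% (69.2 to 80.9%) had a CTCF peak, and of 572 pairs of named genes 85.5% (82.4 to 88.1%), while the CpG-rich shares were 84.3% and 83.2%. The Rad21 shares were 77.9% (71.8 to 83.1%) and 84.3% (81.1 to 87.0%), with intervals that overlapped.

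The frequency of short promoter words was compared between members and lone promoters. The share of windows with a word is given for 300 bp, from 250 bp upstream to 50 bp downstream of a start, and a match is a description and not a site. Over all regions, whose CpG-rich share differs, the ETS word CCGGAAG was in 28.2% of the 1549 member gene starts and 9.14% of the lone promoters, GGGCGG in 68.2% and 41.0%, and TATAAA in 4.52% and 14.6%. The other comparisons with lone promoters are given between CpG-rich windows, 1293 of members and 6988 lone.

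Among these, CCGGAAG was in 30.3% of members and 16.6% of lone promoters. CCAAT was in 43.5% and 36.4%, ATGGCGGC in 7.35% and 4.69%, and ACTACAA in 5.18% and 3.48%. GGGCGG was in fewer of the members, 930 of 1293 (71.9%, 69.4 to 74.3%), than of the lone promoters, 5244 of 6988 (74.0 to 76.0%), and TATAAA was also in a smaller share (3.87% and 5.57%). GCATGCGC was in 98 of 1293 members (7.58%, 6.26 to 9.15%) and 419 of 6988 lone promoters (5.46 to 6.58%). For TGACGTCA the shares were 4.72% and 3.72%, and for CACGTG 12.1% and 11.2%. Among all members, CCGGAAG was in 30.3% of the starts whose region held a CTCF peak and in 18.0% of the others, CCAAT in 41.5% and 46.6%, and TATAAA in 3.74% and 8.27%. This split was not restricted to CpG-rich regions, of which 86.7% held a CTCF peak, against 63.3% of CpG-poor ones. The windows of a pair overlap where its starts are close, so they are not independent.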

How the data were processed

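Alignment by the authors used Bowtie2 and mm9, and reads with several positions were discarded. Peaks were called with MACS2, and blacklisted peaks and those made of identical reads were taken out. The lists are named for the merged libraries of each antibody. The 2 deposited lists give, per peak, a fold enrichment (a ratio to local background) and a −log10 q-value, used as deposited, and a summit position. Library depth is not in the lists, and intervals cover counting error only.

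Gene starts were the outer ends of GENCODE gene features for mm9, and sequence came from the same build (peak ends were checked against chromosome lengths). Peaks were assigned by at least 1 shared bp with Python 3.11.15, numpy 2.4.6, pandas 2.3.3 and scipy 1.17.1; plots used matplotlib 3.10.9. Shares carry 95% Wilson intervals, differences Newcombe intervals, and medians order-statistic intervals. Steps were tested on simulated data. In 3 cases a gene entered more than 1 pair, and 25 intervals were spanned by another coding gene.

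Members and gene lists were chosen with earlier results of these data known. Named pairs were the 10 highest for each factor, the 5 highest with a single factor, the textbook pairs (1 is counted but not reported by name here), and up to 4 of each gene list. Alternatives varied overlap, peak thresholds, region width, distance, adjacency, lone promoter and CpG rules, and motif settings.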

Additional observations from a re-analysis of the deposited data

How the results depend on the processing

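Of 64 alternative values, 50 kept their direction and side of the threshold or, without a test, moved by less than their error. For CTCF, Rad21 and overlapping peaks the difference from lone promoters kept its sign and its interval left out 0 under every alternative that used whole regions; the smallest differences were those within CpG-rich regions. Counted as a summit in the 500 bp downstream of a single start in CpG-rich regions, an alternative chosen after seeing the data, the difference was −2.84 points for CTCF and −2.62 for Rad21, and both intervals included 0, while in CpG-poor regions, also chosen afterwards, it was 19.7 and 17.3 points. The difference for Rad21 without CTCF, −0.556 points, changed sign with the summit in the region (0.386), most of the peak in it (0.0066), −log10 q of at least 10 (1.82), a fold of at least 5 (3.90) and in CpG-poor regions (4.95, chosen after seeing the data), and was −1.47 with an interval that left out 0 in CpG-rich regions. The thresholds were applied to both lists. With −log10 q of at least 10 the median fold was 5.77 for CTCF and 5.21 for Rad21, and the median −log10 q of all member peaks was 20.9 and 14.4. With starts at most 500 bp apart, 7.64% of CTCF and 3.81% of Rad21 summits lay between the starts. The lower share of motifs than at lone promoters held under each motif setting and peak threshold (−9.68 to −5.24 points). Within CpG-rich regions, an alternative chosen after seeing the data, the difference was −4.30 points. No paired analysis was possible because the pooled lists hold no values of single libraries, and no library could be left out for the same reason. The lists do not give the depth of the pools, so its effect on which regions held a peak was not tested.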

Other observations

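For divergent regions without a CTCF peak, the nearest CTCF peak was a median of 5.09 kb away (2.93 to 7.40 kb), compared with 13.1 kb for lone promoters without one (12.5 to 13.9 kb) and 5.25 kb for CpG-rich lone promoters (4.70 to 6.05 kb). For the 135 regions without a Rad21 peak the median distance was 7.06 kb, and 6.91 kb for CpG-rich lone promoters. On the X chromosome, which the rule left out, 14 of 18 divergent pairs held a CTCF peak and 12 a Rad21 peak. Of the CTCF motifs of member peaks, 17 had their centre within a region, 6 of them between the starts and 11 in the first 500 bp of a gene, and 5 of the 11 were on the strand of that gene (45.5%, 21.3 to 72.0%).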
